A study of Mus musculus with 8 samples.

Results

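Transcripts of 50 lysosomal genes were compared between a pair of sorted mouse bone marrow populations. They comprised 24 genes of the vacuolar proton pump, taken as every symbol starting with Atp6v or Atp6ap, and 26 listed hydrolases and membrane proteins, out of 18790 named genes in the deposited count matrix. All cells came from flushed femoral marrow of untreated C57BL/6 mice carrying Csf1r-EGFP, a transgene in which the Csf1r promoter drives green fluorescent protein in monocytes and macrophages. The CD11b+ population was sorted as CD11b+ F4/80+ Ly6G- GFPlo VCAM1+, and the CD11b- population as CD11b- F4/80+ GFP+ VCAM1+, with 4 biological replicates each. The submitters put the word macrophage in quotation marks for both populations, and their title describes the sorted events as other cells that carry pieces of macrophages. The sources used here do not give the age or sex of the mice, or whether marrow was pooled.

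A lysosome degrades proteins, sugars, lipids and nucleic acids with hydrolases that work best at acid pH. The acid is made by the vacuolar proton pump, in which a soluble V1 sector burns ATP and turns a membrane V0 sector that carries protons into the lumen. Macrophages are known for their large lysosomal compartment, and the azurophil granules of developing neutrophils hold many of the same hydrolases and the membrane protein CD63.

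Levels are given in CPM, the deposited scaling of each gene's reads to a common library total. Totals ran from 36604660 to 47951234 counts in CD11b+ libraries and from 27462607 to 35160747 in CD11b- libraries. The sort label was checked against marker genes. The summed level of 14 macrophage markers was 1087 to 1104 CPM in CD11b+ and 560 to 948 CPM in CD11b-. Of 13 tested, 3 were higher in CD11b+ (Slc40a1 and the sorted antigens Adgre1, which encodes F4/80, and Vcam1), 2 were lower (C1qc and Hmox1) and 8 were not called, and the median log2 fold change of the list was -0.75. The higher sum in CD11b+ thus rests on few genes. Granule genes of the neutrophil lineage summed to 125728 to 144653 CPM in CD11b+ and 613 to 6850 CPM in CD11b-, whereas 9 erythroid genes summed to 551 to 1056 CPM in CD11b+ and 26873 to 37307 CPM in CD11b-. Markers of other cell types therefore outweighed the macrophage markers in every CD11b+ library and, for the erythroid list, in every CD11b- library. Their part in the results below was not tested. In bulk samples of this kind, fewer cells of a type and less RNA per cell cannot be told apart.

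More of these genes were higher in the CD11b+ population than lower. Of 45 members with enough reads to test, 23 were higher in CD11b+, 3 were lower and 19 did not pass edgeR's quasi-likelihood test with Benjamini-Hochberg adjustment over all genes at 0.05. The called share was 57.8%, against 29.7% of all 11965 genes tested, of which 14.6% were higher and 15.0% were lower. The median log2 fold change, CD11b+ over CD11b-, was 0.89 for the tested members and -0.01 for all tested genes. The 4 CD11b+ libraries all lay above the 4 CD11b- libraries for 22 tested members (18.1% of all tested genes did so) and all below for 3 (18.4% of all tested genes). The count of 23 includes Atp6v1g2, and the count of 22 includes Atp6v1g2 and Galc. Only in CD11b+ did these genes reach the minimum count of 10 in most libraries, so their place in the counts carries no weight. The members were chosen with earlier results of these data known, so these shares describe the list.

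The share called was much the same in both subsets, 57.7% of the listed genes and 57.9% of the tested pump genes, and no test compared the subsets. Among the 26 listed genes 14 were higher, 1 was lower and 11 were not called, with a median log2 fold change of 1.33. Among 19 tested pump genes 9 were higher, 2 were lower and 8 were not called, with a median of 0.43. Summed over the listed genes, CD11b+ libraries held 4723 CPM ± 412 (SD, n = 4; range 4111 to 5004) and CD11b- libraries 1804 CPM ± 119 (SD, n = 4; range 1712 to 1964). Summed over the pump genes, the levels were 3546 CPM ± 167 (SD, n = 4; range 3375 to 3775) and 2824 CPM ± 172 (SD, n = 4; range 2635 to 3045). The ranges of the populations did not overlap for either sum. Most tested members reached the minimum count of the filter on low counts in most libraries of both populations (17 pump genes and 25 listed genes). Atp6v1g2 and Galc did so in CD11b+ alone and Atp6v0a4 in CD11b- alone. These counts do not say which libraries carried a gene through the filter.

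**Figure D1:**
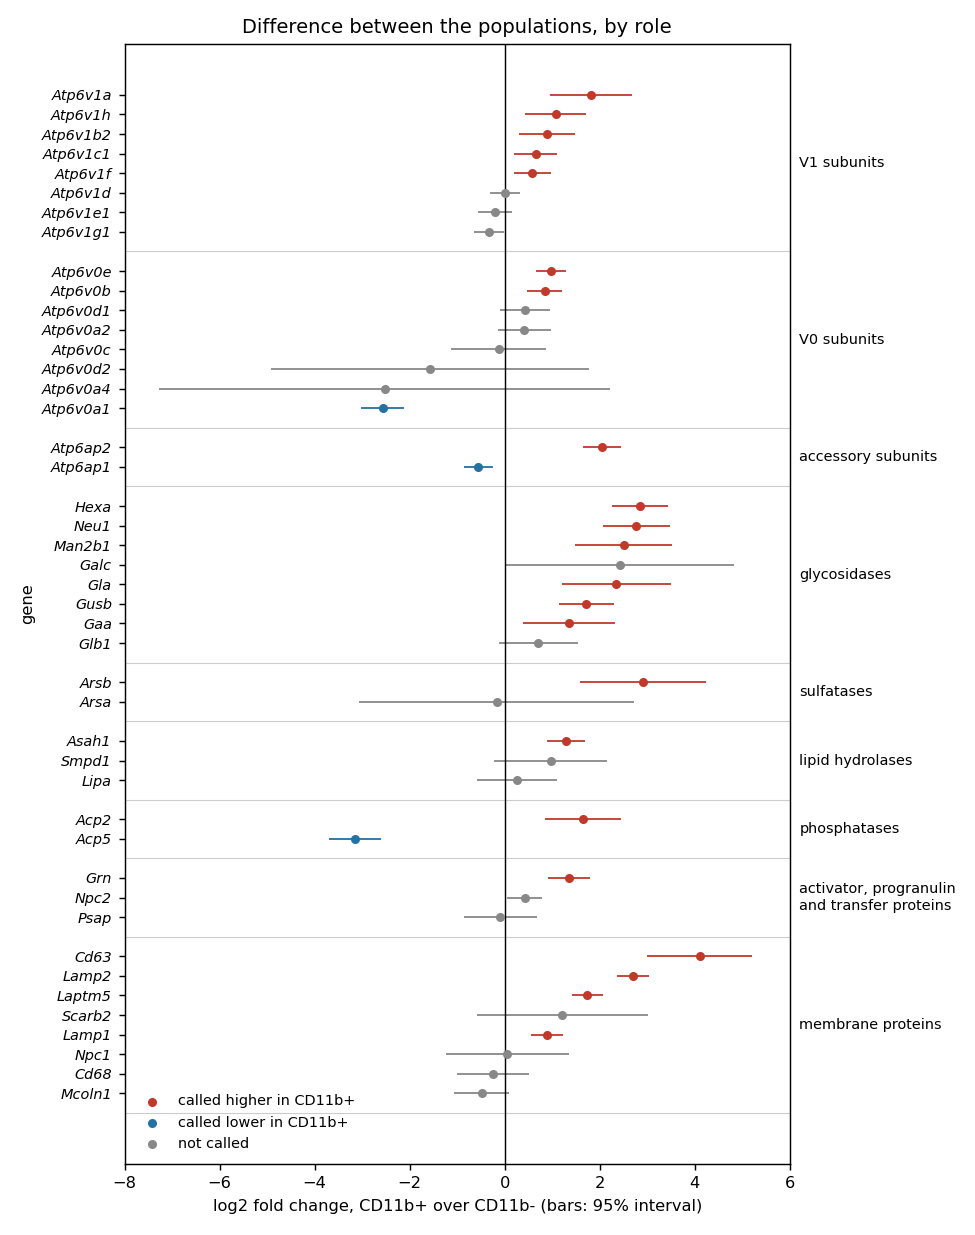
Log2 fold change of each tested member, CD11b+ over CD11b-, with 95% intervals, ordered by role; red and blue mark genes called higher and lower in CD11b+, and grey marks genes not called. Atp6v1g2, without a read in CD11b-, is left out. The glycosidases lie to the right of 0, whereas the V0 subunits spread to both sides.

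The V1 sector holds the catalytic machinery of the pump, and 6 of its 9 tested genes (66.7%) were higher in CD11b+ while none was lower. Among all tested genes 14.6% were higher and 15.0% were lower. The catalytic A subunit gene Atp6v1a changed most among the well-expressed ones. Its levels in replicates 1 to 4, the order used for every list of values here, were 170, 219, 158 and 162 CPM in CD11b+ and 17.5, 55.9, 57.3 and 74.5 CPM in CD11b-. The populations did not overlap, and CD11b- replicate 1 was the lowest library. Atp6v1a was 3.53-fold higher in CD11b+ (SE 0.38 on the log2 scale, adjusted p = 0.00532). Atp6v1h, the regulatory H subunit, measured 89.1, 93, 107 and 99.2 CPM in CD11b+ and 73.7, 40.4, 23.4 and 55 CPM in CD11b-. It was 2.11-fold higher (SE 0.29 on the log2 scale, adjusted p = 0.018), with a far wider spread among the CD11b- libraries. Atp6v1f, the F subunit of the central stalk, measured 114, 116, 148 and 176 CPM against 111, 84.5, 84.7 and 100 CPM. The gap between the populations was narrow, and the 1.5-fold difference (SE 0.17 on the log2 scale, adjusted p = 0.0294) was lost in 4 of the 8 fits that left out a single library.

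Atp6v1b2, the B subunit that completes the catalytic ring, was 1.86-fold higher in CD11b+ (adjusted p = 0.0276), and Atp6v1c1, the C subunit that joins the sectors, was 1.57-fold higher (adjusted p = 0.0385). The populations overlapped for both genes, and each call was lost in 5 of the 8 fits with a library left out. The ratio of Atp6v1b2 to Atp6v1a, both per kilobase of exon, was 1.39 to 2.46 in CD11b+ and 1.65 to 15.3 in CD11b-, where 15.3 belonged to replicate 1, the library with the lowest Atp6v1a. Atp6v1d, Atp6v1e1 and Atp6v1g1 were not called. Atp6v1d, the D subunit of the rotor, averaged 187 CPM ± 7.15 (SD, n = 4) in CD11b+ and 192 CPM ± 36 (SD, n = 4) in CD11b-, with a 95% interval of 0.813 to 1.25 for the fold of CD11b+ over CD11b-. For Atp6v1e1, a peripheral stalk subunit, the interval was 0.675 to 1.11, and for its partner Atp6v1g1 0.638 to 0.993 (adjusted p = 0.119).

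Atp6v1g2, a G subunit form best known from neurons, had no read in any CD11b- library and measured 2.46, 3.27, 4.63 and 6.19 CPM in CD11b+. With the CD11b- libraries pooled and set to a limit of 3 counts, it was at least 173-fold higher in CD11b+. Without a read in CD11b-, it could pass the filter on low counts through the CD11b+ libraries alone, so only a higher level there was possible. Its call, counted among the 6 V1 genes and in the pump and member totals above, supports nothing here. Its annotated exons overlap those of Nfkbil1, which averaged 9.05 CPM in CD11b+ and 3.68 CPM in CD11b-, and the unstranded libraries cannot separate reads from shared bases. The remaining V1 isoform genes Atp6v1b1, Atp6v1c2, Atp6v1e2 and Atp6v1g3 had too few reads to test, with highest levels of 0.386, 1.04, 1.02 and 0 CPM.

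**Figure D2:**
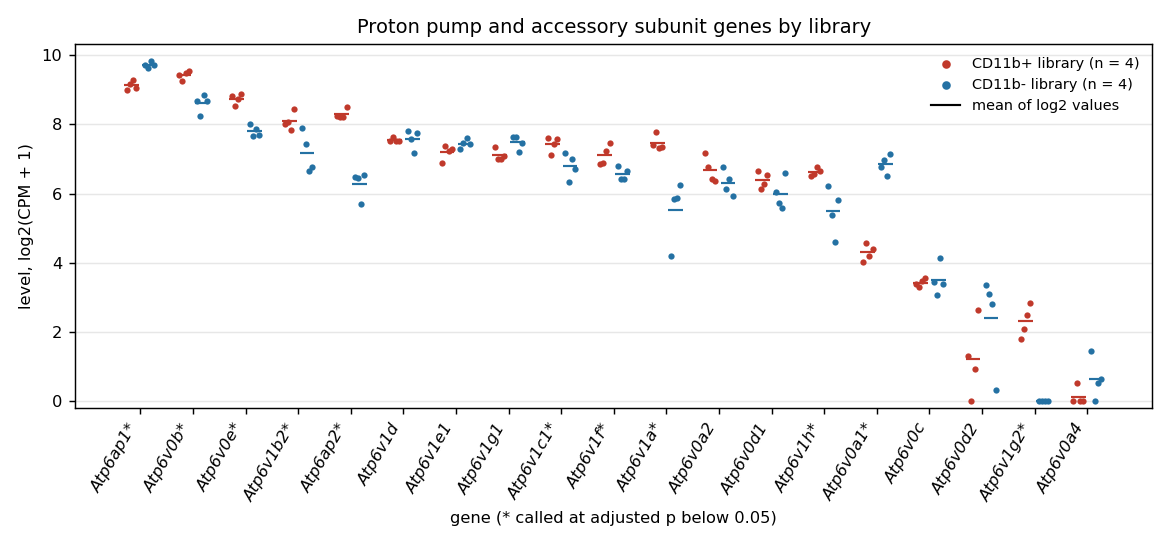
Level of each tested pump gene in every library, as log2(CPM + 1), with red points for the 4 CD11b+ and blue points for the 4 CD11b- libraries, bars at the mean of the log2 values and an asterisk at genes called at an adjusted p below 0.05. Atp6ap1 and Atp6v0a1 are the called genes with the blue points on top.

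Of the 8 tested genes of the V0 sector, 2 were higher in CD11b+, 1 was lower and 5 were not called. The called share of 37.5% lies near the 29.7% of all tested genes, so the count says little about the sector. Atp6v0b, a proteolipid of the rotating ring, measured 683, 604, 710 and 747 CPM in CD11b+ and 407, 300, 457 and 406 CPM in CD11b-. It was 1.79-fold higher (SE 0.17 on the log2 scale, adjusted p = 0.004), with a wide gap between the populations. Atp6v0e, the small e subunit, measured 450, 371, 424 and 470 CPM against 256, 203, 233 and 206 CPM. It was 1.96-fold higher (SE 0.14 on the log2 scale, adjusted p = 0.00053), again without overlap.

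The a subunit anchors the pump to a given membrane and forms the path for protons. Its genes Atp6v0a1, Atp6v0a2 and Tcirg1 had reads in every library, and of these Atp6v0a1 and Tcirg1 were called, in opposite directions. Atp6v0a1 measured 15.4, 22.7, 17.5 and 20 CPM in CD11b+ and 109, 124, 90.4 and 139 CPM in CD11b-. All CD11b+ libraries lay far below all CD11b- libraries, and the gene was 5.91-fold lower in CD11b+ (SE 0.20 on the log2 scale, adjusted p = 1.37e-05). Tcirg1, which encodes the a3 subunit of lysosomes and of the osteoclast border and whose symbol keeps it out of the members, went the other way. It measured 245, 330, 296 and 224 CPM in CD11b+ and 11.8, 34.3, 50.1 and 55.2 CPM in CD11b-, and was 7.36-fold higher (SE 0.44 on the log2 scale, adjusted p = 0.000729). Atp6v0a2, the a2 gene associated with the Golgi, differed by 1.33-fold with a 95% interval of 0.9 to 1.96 (adjusted p = 0.27).

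On the scale of CPM per kilobase of exon, which permits levels of different genes to be compared, Tcirg1 supplied 76.3% ± 4.99 (SD, n = 4) of a subunit transcripts in CD11b+ and 21.3% ± 10.2 (SD, n = 4) in CD11b-. The share of Atp6v0a1 was 3.75% ± 0.747 (SD, n = 4) and 46.4% ± 6.63 (SD, n = 4). The share of Atp6v0a2 was 20% ± 5.26 (SD, n = 4) and 32% ± 10.1 (SD, n = 4). Tcirg1 per kilobase exceeded Atp6v0a1 by 16 to 24.1 times in CD11b+ libraries, whereas the same ratio was 0.154 to 0.79 in CD11b- libraries. With coding length as the divisor the ratios were 11.5 to 17.2 and 0.11 to 0.566, so the order within each population was the same on both scales. No test was made on these shares. Atp6v0a4, the a4 form of kidney and inner ear, reached 0.43 CPM in CD11b+ and 1.72 CPM in CD11b- and was not called (adjusted p = 0.434).

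**Figure D3:**
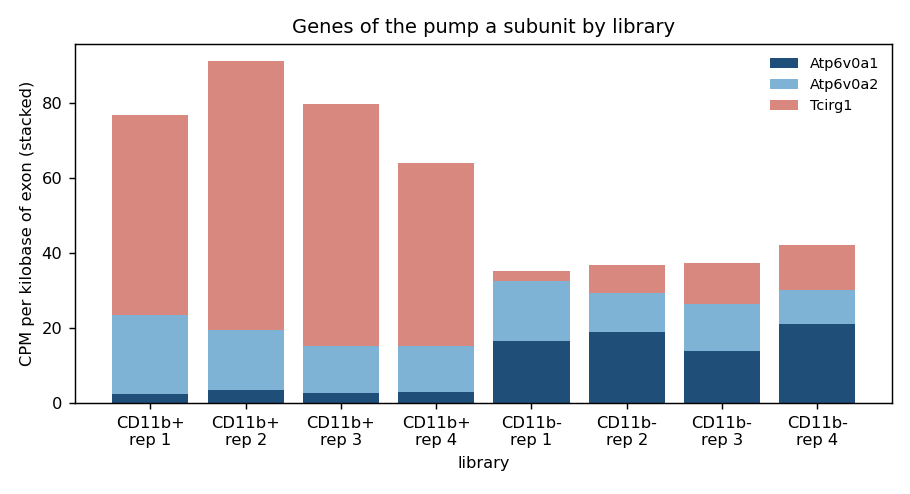
CPM per kilobase of exon of Atp6v0a1, Atp6v0a2 and Tcirg1, stacked for each of the 8 libraries. Tcirg1 forms most of each CD11b+ bar, and in CD11b- replicate 1 its part is smallest.

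The other V0 genes did not pass the test. Atp6v0d1, the widely expressed d subunit, averaged 83.9 CPM ± 14 (SD, n = 4) against 64.7 CPM ± 22 (SD, n = 4; adjusted p = 0.222). It was called higher once CD11b- replicate 4, the highest of its group at 95.5 CPM, was left out (adjusted p = 0.0363). Atp6v0d2, the d form of osteoclasts, reached 5.26 CPM in CD11b+ and 9.15 CPM in a CD11b- library (adjusted p = 0.499). Atp6v0c, the main ring proteolipid, averaged 9.78 and 10.8 CPM (adjusted p = 0.87). Processed copies of Atp6v0c are annotated, and the sources used here do not say how reads that map to several places were treated, so its level is uncertain.

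The tested accessory subunits, which assist assembly and sorting of the pump, moved apart. Atp6ap2, also known as the prorenin receptor, measured 304, 296, 296 and 363 CPM in CD11b+ and 87.3, 86, 50.5 and 91.1 CPM in CD11b-. It was 4.14-fold higher in CD11b+ (SE 0.18 on the log2 scale, adjusted p = 2.33e-05). Atp6ap1, or Ac45, measured 513, 569, 625 and 527 CPM in CD11b+ and 834, 792, 910 and 838 CPM in CD11b-. It was 1.47-fold lower (SE 0.14 on the log2 scale, adjusted p = 0.0114). Neither gene overlapped between the populations, and both calls held in all 16 alternative fits. Per kilobase of exon Atp6v0b led the pump in CD11b+ at 334 CPM ± 29.5 (SD, n = 4), followed by Atp6ap1 at 185 CPM ± 16.7 (SD, n = 4). In CD11b- Atp6ap1 led at 279 CPM ± 16.2 (SD, n = 4), followed by Atp6v0b at 191 CPM ± 32.4 (SD, n = 4). Atp6v1f, Atp6v1g1, Atp6ap2 and Atp6v0e came next in CD11b+, at 116 to 130 CPM per kilobase, and did not differ beyond their spread. Per kilobase of coding sequence Atp6v0b came first in both populations, so the lead of Atp6ap1 in CD11b- depends on the length used. Atp6ap1l, the third accessory gene, had too few reads to test and reached 0.456 CPM.

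The promoters of lysosomal genes are known for the letters CACGTG, the core of the element bound by TFEB and related factors. The RefSeq promoter table (GRCm38.p6), which holds 250 bases before and 50 after each start, matched 41 of the 50 members, and 10 of these held CACGTG (24.4%). The motif reads the same on both strands. It occurred in 8.09% of 27025 symbols in the table and in 12% of the 9159 matched genes that were tested. The longer TCACGTGA, which contains it, occurred in 5 of the 41 members (12.2%), in 1.12% of all symbols and in 2.29% of tested genes. The members with CACGTG were Atp6v0b, Atp6v0d1, Atp6v0e, Atp6v1a, Arsa, Gaa, Gla, Glb1, Lamp1 and Mcoln1. These include genes called higher and genes not called. Gla held 2 copies, both farther from the start than the bases printed here. The 150 bases before the start are printed 5′ to 3′ on the gene's strand, with CACGTG in capitals, for genes with several copies in that stretch (Lamp1, Mcoln1, Atp6v0b), for the catalytic subunit gene (Atp6v1a) and for the V0 gene that fell, where no copy was found (Atp6v0a1). They lie at chr8:13159011-13159160 (plus strand), chr8:3500369-3500518 (plus), chr4:117887330-117887479 (minus), chr16:44139260-44139409 (minus) and chr11:101010248-101010397 (plus), in that order.
Lamp1: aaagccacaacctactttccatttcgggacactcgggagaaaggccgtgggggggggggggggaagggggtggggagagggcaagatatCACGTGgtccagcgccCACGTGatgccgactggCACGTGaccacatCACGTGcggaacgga
Mcoln1: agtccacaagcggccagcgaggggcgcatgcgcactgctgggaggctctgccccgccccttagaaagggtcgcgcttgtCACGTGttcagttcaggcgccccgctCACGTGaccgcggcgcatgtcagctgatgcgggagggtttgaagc
Atp6v0b: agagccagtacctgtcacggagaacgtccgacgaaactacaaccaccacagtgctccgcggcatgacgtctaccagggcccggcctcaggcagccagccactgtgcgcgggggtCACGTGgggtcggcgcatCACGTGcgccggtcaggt
Atp6v1a: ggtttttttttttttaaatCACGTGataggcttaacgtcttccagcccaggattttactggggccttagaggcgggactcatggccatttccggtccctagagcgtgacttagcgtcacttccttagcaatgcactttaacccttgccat
Atp6v0a1: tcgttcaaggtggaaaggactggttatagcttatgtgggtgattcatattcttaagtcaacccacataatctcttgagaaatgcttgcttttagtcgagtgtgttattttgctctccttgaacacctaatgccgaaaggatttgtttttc
Lamp1 held 4 copies within its last 61 bases and was higher in CD11b+, whereas Mcoln1 held 2 copies and was not called. A match is a description of letters and shows no bound factor.

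Glycosidases, which remove sugars from glycoproteins, glycolipids and glycosaminoglycans, had 6 of 8 genes (75%) higher in CD11b+ and none lower. The shares of all tested genes were 14.6% higher and 15.0% lower. All 8 fold changes lay above 1, among them that of Galc, which reached the minimum count of 10 in most libraries of CD11b+ alone. Hexa, the alpha subunit of hexosaminidase, measured 384, 464, 473 and 486 CPM in CD11b+ and 83.2, 90, 38.6 and 48.8 CPM in CD11b-. It was 7.20-fold higher (SE 0.26 on the log2 scale, adjusted p = 3.29e-05), with a wide gap between the populations. Neu1, the lysosomal sialidase, measured 70.8, 135, 130 and 89.6 CPM against 10.3, 20.4, 18.2 and 14.6 CPM. It was 6.84-fold higher (SE 0.32 on the log2 scale, adjusted p = 0.000126), and no library overlapped. Man2b1, the lysosomal alpha-mannosidase, measured 370, 627, 507 and 406 CPM against 101, 165, 49 and 33.6 CPM. It was 5.69-fold higher (SE 0.46 on the log2 scale, adjusted p = 0.00229), with its CD11b- levels split between replicates 1 and 2 above and 3 and 4 below. Gusb, beta-glucuronidase, measured 180, 200, 180 and 230 CPM against 54.9, 69.3, 81.2 and 37.8 CPM. It was 3.29-fold higher (SE 0.26 on the log2 scale, adjusted p = 0.00065), also without overlap.

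Less abundant glycosidases followed. Gla, alpha-galactosidase A, ranged from 9.53 to 24.5 CPM in CD11b+ and from 2.06 to 4.33 CPM in CD11b- and was 5.11-fold higher (adjusted p = 0.00616). Gaa, the acid alpha-glucosidase that clears glycogen, was 2.56-fold higher (adjusted p = 0.0388), with 31.7, 35.9, 38.5 and 49.1 CPM against 32.4, 10.1, 11.1 and 9.43 CPM. CD11b- replicate 1 lay within the CD11b+ range. Without that library the fold was 3.85 (adjusted p = 0.00148), and the call was lost when any other single library was left out. Galc, the galactosylceramidase, ranged from 4.59 to 7.8 CPM in CD11b+ and from 0.073 to 2.6 CPM in CD11b-, without overlap, and did not pass the test (adjusted p = 0.127). Glb1, beta-galactosidase, averaged 72.8 CPM ± 26.5 (SD, n = 4) and 45.4 CPM ± 17.8 (SD, n = 4) and was not called (adjusted p = 0.198).

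The sulfatases and lipid hydrolases each had 1 called gene. Arsb, the arylsulfatase that trims dermatan sulfate, measured 93, 98.4, 113 and 111 CPM in CD11b+ and 16.5, 31.3, 5.99 and 3.53 CPM in CD11b-. It was 7.51-fold higher (SE 0.59 on the log2 scale, adjusted p = 0.00442), and 12.5-fold higher without CD11b- replicate 2. Asah1, acid ceramidase, measured 108, 93.5, 114 and 143 CPM in CD11b+ and 59.7, 47.6, 40.2 and 44.9 CPM in CD11b-. It was 2.45-fold higher (SE 0.18 on the log2 scale, adjusted p = 0.000431), with no overlap. Arsa, the sulfatide-cleaving sulfatase, averaged 2.68 and 3.16 CPM and was too low for a direction (adjusted p = 0.947). Smpd1, acid sphingomyelinase, averaged 27.1 CPM in CD11b+ libraries against 14.4 CPM (adjusted p = 0.216). For Lipa, the acid lipase that frees cholesterol from its esters, the 95% interval of the fold was 0.663 to 2.14 (adjusted p = 0.685).

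The phosphatases moved in opposite directions. Acp5, the tartrate-resistant acid phosphatase used to stain osteoclasts and some macrophages, measured 34.1, 25.4, 34 and 57 CPM in CD11b+ and 349, 302, 352 and 367 CPM in CD11b-. It was 8.91-fold lower in CD11b+ (SE 0.24 on the log2 scale, adjusted p = 1.18e-05) and was the most abundant listed gene of the CD11b- libraries by CPM. Of 7 osteoclast markers, led by Tcirg1, which summed to 18 to 70.9 CPM in CD11b- and 261 to 366 CPM in CD11b+, Ctsk, Ocstamp and Dcstamp were at 0 in every CD11b- library. In CD11b+ Ocstamp was also at 0, Dcstamp reached 0.098 CPM and Ctsk 5.77 CPM, whereas Mmp9, Itgb3 and Calcr reached 18.3, 7.21 and 2.52 CPM in CD11b-. The CD11b- libraries were high in the 9 erythroid genes, all called lower in CD11b+, and whether any of these cells bear on Acp5 was not tested. Acp2, the housekeeping lysosomal acid phosphatase, ranged from 22.6 to 37.2 CPM in CD11b+ and from 7 to 15.4 CPM in CD11b- and was 3.12-fold higher (adjusted p = 0.00655).

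Among the activator and transfer proteins, Grn was the called gene. Grn, the precursor of progranulin and its granulin fragments, measured 205, 329, 331 and 246 CPM in CD11b+ and 93.6, 107, 113 and 130 CPM in CD11b-. It was 2.57-fold higher (SE 0.20 on the log2 scale, adjusted p = 0.000551). Npc2, which carries cholesterol inside the lysosome, averaged 130 CPM ± 15.6 (SD, n = 4) and 99.9 CPM ± 14.4 (SD, n = 4), without overlap, and did not pass the test (adjusted p = 0.0959). Psap, the precursor of the saposins that present lipids to hydrolases, averaged 21.4 and 23.3 CPM (adjusted p = 0.884), with a 95% interval of 0.55 to 1.6 for the fold.

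Membrane proteins of the lysosome included the largest difference among the listed genes. Cd63, a tetraspanin of late endosomes and granules, measured 603, 566, 722 and 813 CPM in CD11b+ and 72, 57.3, 18.3 and 15.9 CPM in CD11b-. It was 17.2-fold higher (SE 0.49 on the log2 scale, adjusted p = 0.000169), and a processed copy of Cd63 is annotated, which leaves its level uncertain. Lamp2, a main glycoprotein of the limiting membrane, measured 555, 681, 530 and 586 CPM against 90, 90.5, 79.5 and 113 CPM. It was 6.50-fold higher (SE 0.15 on the log2 scale, adjusted p = 2.61e-06), with the libraries of each population close together. Lamp1, its relative, measured 453, 532, 478 and 607 CPM against 327, 243, 259 and 326 CPM. The annotated exons of Lamp1 overlap those of Grtp1, which averaged 0.175 CPM in CD11b+ and 15 CPM in CD11b-. Lamp1 was 1.85-fold higher (SE 0.15 on the log2 scale, adjusted p = 0.00133), so the LAMP genes did not differ equally: the 95% interval of the fold was 5.12 to 8.24 for Lamp2 and 1.47 to 2.32 for Lamp1. Laptm5, a lysosomal membrane protein of blood cells, measured 565, 662, 688 and 512 CPM against 220, 183, 171 and 175 CPM. It was 3.34-fold higher (SE 0.15 on the log2 scale, adjusted p = 2.12e-05), without overlap.

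The other 4 genes of the membrane group were not called. Cd68, a marker long used to stain macrophages, measured 55.8, 56.9, 87.9 and 71 CPM against 119, 73.8, 99.7 and 36.3 CPM (adjusted p = 0.657), and the populations overlapped. The 95% interval of its fold was 0.495 to 1.43. Mcoln1, the calcium channel TRPML1, averaged 56.6 CPM ± 4.77 (SD, n = 4) and 80.1 CPM ± 26 (SD, n = 4) (adjusted p = 0.21). Scarb2, the carrier that delivers glucocerebrosidase, spread from 0.912 to 34.3 CPM among CD11b- libraries and from 17.9 to 48 CPM among CD11b+ libraries (adjusted p = 0.312). Npc1, the membrane partner of Npc2, averaged 7.79 and 7.69 CPM (adjusted p = 0.964).

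**Figure D4:**
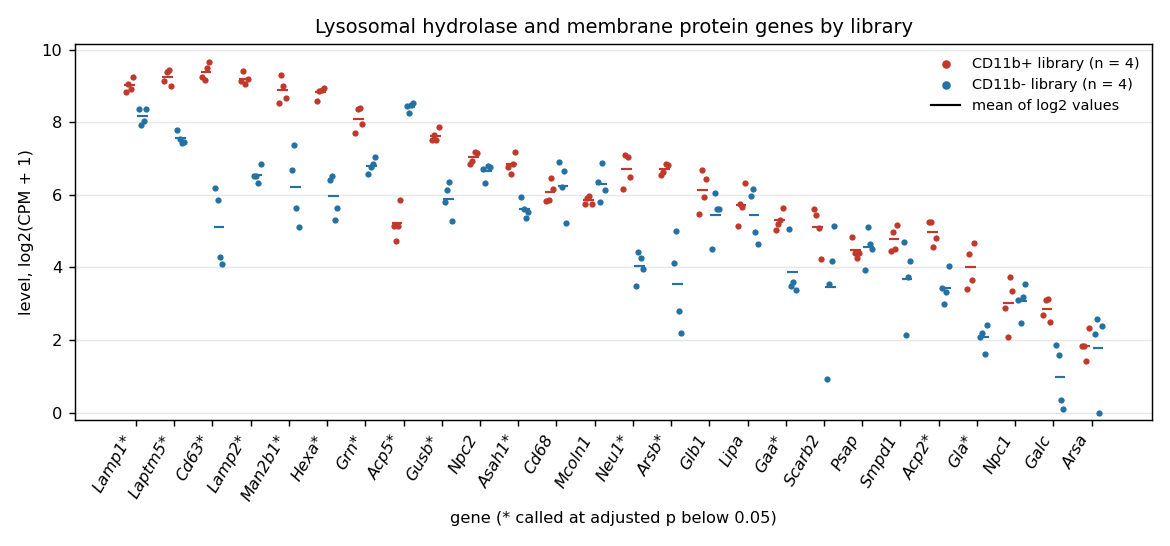
Level of each listed gene in every library, as log2(CPM + 1), with red points for the 4 CD11b+ and blue points for the 4 CD11b- libraries, bars at the mean of the log2 values and an asterisk at genes called at an adjusted p below 0.05. Acp5 is the called gene with the blue points on top, and Cd63 and Arsb show the blue points in pairs.

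The CD11b- libraries differed from each other in some of these genes. Mpo, the myeloperoxidase of azurophil granules, measured 41392, 36445, 37499 and 54200 CPM in CD11b+ and 5803, 3948, 1449 and 412 CPM in CD11b-. CD11b- replicates 1 and 2, the highest in Mpo, were also the higher pair in Cd63, Man2b1, Hexa and Arsb, which are named after their values were seen. Over the 45 tested members this pair lay above the other CD11b- libraries for 11, below them for 7 (Acp5, Grn, Atp6v1a, Atp6ap1, Npc1, Npc2 and Scarb2) and on neither side for 27. The share of all tested genes that this pair split in the same way was not counted, so these numbers do not set the members apart. Without CD11b- replicates 1 and 2 the fold of CD11b+ over CD11b- was 39.9 for Cd63, 11.6 for Man2b1 and 21.7 for Arsb. The counts were then 7 higher and 2 lower for the pump and 15 higher and 1 lower for the listed genes. Leaving the pair out was chosen after the data were seen, and the part of granule-bearing cells in these levels was not tested.

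**Figure D5:**
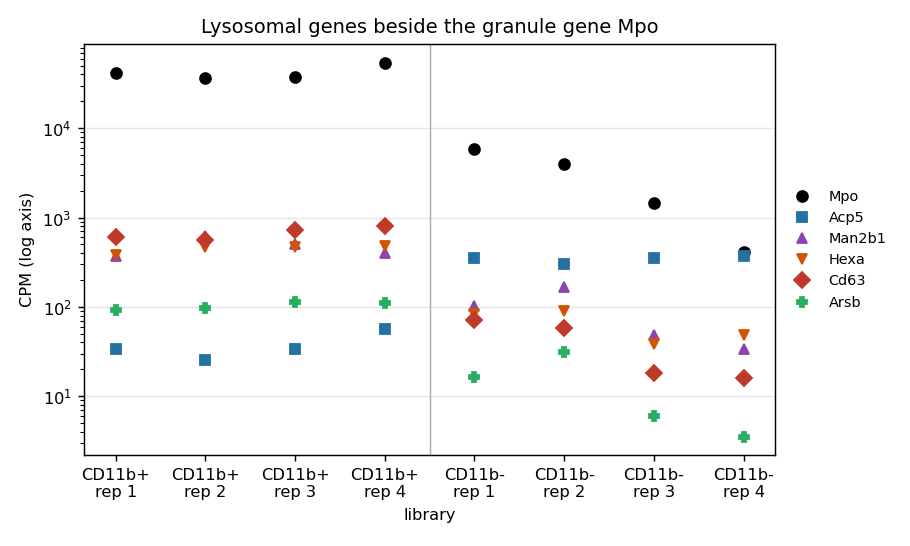
CPM on a log axis of Mpo and of Acp5, Man2b1, Hexa, Cd63 and Arsb in each of the 8 libraries. In CD11b- the red, purple, orange and green symbols are higher in replicates 1 and 2 than in 3 and 4, while Acp5 stays between 302 and 367 CPM.

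Genes that serve the same organelle but are not among the members also moved in both directions. Of 76 such genes in 6 lists 72 were tested, with 27 higher in CD11b+ (37.5%), 9 lower (12.5%) and 36 not called, against 14.6% higher and 15.0% lower among all tested genes. These counts, and those of the single lists, include Dmxl2 among the higher and Rragd among the lower genes. Each reached the minimum count of 10 in most libraries of a single population, so their place in the counts carries no weight. Among 9 further pump subunits and assembly factors 4 were higher and 2 were lower. Rogdi, a factor linked to pump assembly and the most abundant of them, measured 278, 352, 411 and 267 CPM in CD11b+ and 20.9, 18.2, 18.1 and 20.5 CPM in CD11b- (17.3-fold higher, adjusted p = 1.35e-06). The rabconnectin genes, whose products join in regulating pump assembly, are Dmxl2 and Dmxl1. Dmxl2 was called higher (adjusted p = 0.00737), with 12 to 19.4 CPM in CD11b+ and 0.947 CPM or less in CD11b-. It reached the minimum count of 10 in most libraries of CD11b+ alone, so its call carries no weight. Its fold of 66.9 became 490 without CD11b- replicate 1 and gives no measure of size. Dmxl1 was 6.19-fold lower (adjusted p = 0.00579), with 1.7 to 9.73 CPM in CD11b+ and 24.3 to 46 CPM in CD11b-.

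Of 7 genes that tag or carry hydrolases by mannose 6-phosphate or sortilin, 4 were higher and none was lower, against 14.6% and 15.0% of all tested genes. M6pr, the cation-dependent receptor and the most abundant of them, averaged 473 CPM ± 47.6 (SD, n = 4) and 191 CPM ± 27.8 (SD, n = 4) and was 2.55-fold higher (adjusted p = 8.11e-05). Sort1, sortilin, was 20.8-fold higher (adjusted p = 0.00798), with 103 to 162 CPM in CD11b+ and 0.036 to 12.5 CPM in CD11b-. Its fold was 34 without CD11b- replicate 3, and its adjusted p was 0.0618 without the pair highest in Mpo. Among the MiT/TFE factors, which bind the motif printed above, Tfec was 27.3-fold higher (adjusted p = 0.0063; 43.3 to 68.9 CPM against 0 to 4.52 CPM), or 45.1-fold without CD11b- replicate 2. Tfeb (adjusted p = 0.479) and Tfe3 (adjusted p = 0.412) were not called. Mitf stayed at or below 1.99 CPM and was not tested.

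Of 23 other hydrolases and activators tested, 8 were higher, 2 were lower and 13 were not called, against 14.6% higher and 15.0% lower among all tested genes. Hyal1, a hyaluronidase gene that did not pass the filter, measured 0 CPM in every CD11b+ library and 11.7, 7.28, 0 and 13.9 CPM in CD11b-. Ids, also untested, stayed at or below 1.8 CPM. Pla2g15, a lysosomal phospholipase, had the largest fold at 13 (adjusted p = 0.019; 23.4 without CD11b- replicate 2). Dnase2a, the acid endonuclease that degrades the DNA of engulfed nuclei, was 3.48-fold lower (adjusted p = 0.0265), a call lost in 5 of the 8 fits with a library left out. Gm2a, the activator that works with hexosaminidase, was the most abundant and was not called (356 against 255 CPM, adjusted p = 0.0652).

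Of 22 other membrane proteins and transporters, 6 were higher, 4 were lower and 12 were not called. Among all tested genes 14.6% were higher and 15.0% were lower, so the count of lower genes says little about this list. Cd164, a sialomucin and by CPM the most abundant of them over all libraries, was 1.93-fold higher (adjusted p = 0.00118). Cln3, the Batten disease protein, was 5.55-fold higher (adjusted p = 0.000363). In CD11b- libraries Clcn3 lay above Cd164, at 312 against 143 CPM on average, and it was 8.54-fold lower in CD11b+ (adjusted p = 4.91e-06). Mcoln2, a relative of Mcoln1, was 12.2-fold lower (adjusted p = 0.000598), with 1.5 to 4.63 CPM in CD11b+ and 19.6 to 57.5 CPM in CD11b-. Of 8 tested Ragulator and Rag GTPase genes, which hold mTORC1 at the lysosome, 4 were higher, 1 was lower and 3 were not called. The shares of all tested genes were again 14.6% higher and 15.0% lower. Lamtor4 was 5.52-fold higher (adjusted p = 4.34e-05) and Lamtor2, the most abundant, 3.22-fold higher (adjusted p = 5.1e-05). Rragd was called lower (adjusted p = 0.0128), with at most 2.65 CPM in CD11b+ and 20.7 to 41.5 CPM in CD11b-. It reached the minimum count of 10 in most libraries of CD11b- alone, so its call carries no weight. Its fold of 28.3 became 52.4 without CD11b+ replicate 3 and gives no measure of size.

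Other markers that moved with the populations were monocyte genes (462 to 735 CPM summed in CD11b+ and 68.3 to 95.9 CPM in CD11b-, led by Ly6c2), eosinophil genes (6604 to 18758 and 70.8 to 468 CPM, led by Prg2) and B progenitor genes (50.2 to 113 and 807 to 1761 CPM, led by Cd79b). Plasma cell genes summed to 441 to 612 CPM and 203 to 844 CPM, led by Xbp1. The macrophage list was led by Slc40a1, the erythroid list by Car2 and the granule list by Ngp. Which of these cells carried the lysosomal transcripts was not tested.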

How the data were processed

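SmartSeq2 libraries (full-length cDNA, no strand, no molecular identifiers) of 8 sorted samples were deposited as whole-number counts per gene symbol, in files whose names say FPKM, and as a CPM table. The deposited CPM equalled the counts divided by the total over all 18817 rows (largest difference 0.0005). The submitters' processing notes name the build mm9 and the tools DESeq2, HTSeq 0.10.0 and TopHat2 without saying what each was used for. No source used here gives the annotation, the strand setting or how reads with several matches were counted. Annotated exons of 18 members overlap another gene, and such reads cannot be told apart without strand. The 27 rows with numbers for symbols (0.205% to 0.514% of counts) were left out of tests. The test was edgeR 4.0.16 in R 4.3.3 (TMM, filterByExpr with a minimum count of 10 and total of 15, quasi-likelihood, prior count 0.125, Benjamini-Hochberg over 11965 genes at 0.05), run on counts and tested on simulated data. Fold changes and 95% intervals are CD11b+ over CD11b- unless a gene is said to be lower.

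Lengths came from GENCODE M21 by symbol. The floor of 3 counts covers counting error only. Tested members could all be named; per-library values were given for called genes without overlap and with a higher mean of at least 50 CPM, and of other lists the called genes with the largest fold each way and the most abundant gene were named. Other genes given with values were named after these were seen, for their role or level. Members and lists were chosen with earlier results of these data known. Alternatives were DESeq2 1.42.0, limma 3.58.1 on log2(CPM + 1), RLE size factors, no scaling, a minimum of 10 CPM in 4 libraries, no filter, the replicate block, totals without the 20 most abundant genes and leaving out each library. Added after the data were seen were leaving out the CD11b- pair highest in Mpo and coding length.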

Additional observations from a re-analysis of the deposited data

Results flagged for a closer look

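In 5 of 90 sets of 4 libraries (45 tested members in each population), 1 library stood far from the other 3, by a gap to the nearest that took up more of the range than Dixon's 95% limit. Chance alone gives this in about 1 in 20 sets. Atp6ap2 stood high in CD11b+ replicate 4, at 363 CPM with the others at 296 to 304 CPM, and low in CD11b- replicate 3, at 50.5 CPM with the others at 86 to 91.1 CPM. Gaa stood high in CD11b- replicate 1, at 32.4 CPM with the others at 9.43 to 11.1 CPM. Atp6v1d stood high in CD11b+ replicate 2, at 198 CPM with the others at 184 CPM. Atp6v0a4 was at 0.43 CPM in CD11b+ replicate 2 and at 0 in the other CD11b+ libraries.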

How the results depend on the processing

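Of 26 called members 21 kept their call in every alternative fit that tested them (16 fits, or 15 for Gla, which the minimum of 10 CPM removes) and none changed direction. Calls of Atp6v1b2, Atp6v1c1, Atp6v1f, Atp6v1g2 and Gaa were lost in at least 1 fit, and Atp6v0d1, Galc and Glb1, not called, passed in at least 1. With single libraries left out, the pump counts were 6 to 9 higher and 2 lower, the listed counts 13 to 14 higher and 1 lower, the counts of other pathway genes 26 to 28 higher and 8 to 9 lower, and the counts of all genes 1456 to 1754 higher and 1579 to 1670 lower. With the replicate number as a block the counts were 7 higher and 2 lower (pump), 14 higher and 1 lower (listed) and 1585 higher and 1610 lower (all genes). Same-numbered libraries did not deviate together (r 0.00295 to 0.043), 2 of 8 libraries correlated best with their own number, and the labels tie no number to a mouse or day. With totals without the 20 most abundant genes, the summed CPM was 4415 in CD11b+ and 3135 in CD11b- for the pump and 5881 and 2003 for the listed genes. Among members not called, the log2 fold change crossed 0 for 5 and the cause was not tested: Atp6v0c (-0.27 to 0.22 with a library left out), Psap (-0.27 to 0.13 with a library left out), Atp6v1d (-0.04 with no scaling, -0.02 by limma, -0.03 with the CPM minimum, -0.07 to 0.08 with a library left out), Arsa (0.07 by limma, 0.56 with the block, 0.44 without the Mpo pair, -0.57 to 0.16 with a library left out) and Npc1 (-0.06 by limma, -0.04 with the block, -0.24 without the Mpo pair, -0.26 to 0.32 with a library left out). Mean CPM of single members moved by over 1 SD in 37 of 180 values with other totals. Of genes with few or no reads in a population, such as Atp6v1g2, the depth gives a bound and no fold.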
